A study of Mus musculus with 8 samples.

Results

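The transcripts of 10 genes whose proteins store and silence maternal mRNA were analyzed in mouse oocytes lacking the deadenylases Cnot7 and Cnot8. They were chosen by gene symbol as known components of the ribonucleoprotein particles (RNPs) of oocytes, and all 10 were found among the 46078 genes of the count table and among the 19241 genes tested. The genes were Zar1 and Zar1l, the Y-box genes Ybx1 and Ybx2, Ddx6 with Lsm14a, Lsm14b and Patl2, and Eif4enif1 with Eif4e1b.

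RNA of fully grown germinal vesicle (GV)-stage oocytes, which are arrested in meiotic prophase, was measured in 4 CNOT7&8 KO libraries and 4 Zp3-Cre control libraries, each made from 100 oocytes. CNOT7&8 KO oocytes came from females with floxed Cnot7 and Cnot8 alleles and a Cre transgene driven by the Zp3 promoter, which is active in growing oocytes, so that both genes are lost during oocyte growth and not before it. The control oocytes carried the same Zp3-Cre transgene. Per the study's methods, females had a C57BL/6J background, were 4 weeks old and had received PMSG, a gonadotropin that stimulates follicle growth, 48 h before collection, and cumulus cells were stripped off the oocytes. How many females contributed to a library, or whether the libraries of a group came from separate females, is not given in the sources used here, so p-values measure the spread between these libraries, which may be technical.

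A growing oocyte makes more mRNA than it translates and keeps the rest masked until meiosis resumes. In the masked particles Y-box proteins coat the mRNA, the helicase DDX6 and the LSM14 proteins repress translation, and 4E-T (the product of Eif4enif1) holds the cap-binding protein away from the translation machinery. Cnot7 and Cnot8 are catalytic subunits of the CCR4-NOT complex, which shortens poly(A) tails, and tail length sets both the stability and the translation of maternal mRNA.

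Total counts were between 14943671 and 44092144 in control and between 8639444 and 26784110 in KO libraries. Levels are given below as CPM, the read counts scaled to library size and adjusted with TMM factors, which take most genes to be equally expressed. That premise is in doubt here, since 55.2% of all genes tested differed between the groups. The factors were 0.849 to 0.943 in control and 1.07 to 1.14 in KO libraries. No added RNA standard entered the scaling, so a CPM is a share of the RNA sequenced and not an amount per oocyte. In the shallowest library, KO replicate 1, 3 counts made 0.347 CPM, whereas the lowest count of any of the 10 genes in any library was 357, so counting error was small for all of them. Such floors cover counting error only. Of the targeted genes, Cnot8 was at 21% and Cnot7 at 77.1% of its control level. The paper's immunoblots showed both proteins to be absent from KO oocytes. Counts per gene do not show which part of a gene the remaining reads cover. Summed oocyte markers were at 14940 to 16680 CPM in control and 12470 to 14730 CPM in KO libraries, with 1 of 9 higher and 5 lower. Summed markers of granulosa and cumulus cells were at 119 to 157 CPM in control and 212 to 253 CPM in KO libraries, where 5 of the 11 tested were higher and 1 was lower, while Foxl2 had no more than 3 counts in any library. This sum rested on few genes. Mean CPM in control and KO was 56.6 and 122 for Nr5a2, 2.94 and 36.7 for Ptgs2 and 6.86 and 25.9 for Inha. Cyp19a1, the lower marker, was at 58.4 and 31.3 CPM. None of 6 theca and stroma markers was called (sums of 3.95 to 8.38 CPM in control and 6.10 to 7.76 CPM in KO), and of 5 blood and immune markers 2 were higher, with 2 at no more than 3 counts (sums of 88.3 to 109 and 78.4 to 91.6 CPM). Nearly all of the blood and immune sum was Pecam1, with means of 96.2 CPM in control and 82.2 CPM in KO, which was not called. These counts of markers are to be read beside the shares over all genes tested, of which 31.2% were higher and 24.1% lower. Of the genes averaging 100 CPM or more, 8.33% were higher and 55.3% lower. The part of these marker differences in the results below was not tested. In such bulk libraries fewer cells of a type and less RNA per cell cannot be told apart.

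Several of these mRNAs hold a match to the cytoplasmic polyadenylation element (CPE, searched as UUUUAU on the transcript strand). Through this element, which binds CPEB1, maternal mRNA is masked and later polyadenylated. The longest annotated 3′UTR of 6 of the 10 genes held a CPE, beside 56.2% of the 15125 protein-coding genes tested that had a 3′UTR of at least 50 bases. Of the 10 genes 9 reached that length, all but Zar1l. The CPE nearest the 3′ end is shown for 5 of these genes, to let the sequence around the element be compared, each in a window of 30 bases of the transcript strand written as DNA, with the element in capitals.
Ybx1 CPE: gcagcatggggtTTTTATtatttttaccta
Ybx2 CPE: cctctgaagccaTTTTATgaactgtcatgt
Ddx6 CPE: gtttttttttttTTTTATcctttttgatcc
Lsm14a CPE: cgctgactcctgTTTTATgtcaaaaagatg
Lsm14b CPE: aatggaaccaaaTTTTATttggcacatgtg
In GRCm38 coordinates the CPE windows lie at chr4:119278204-119278233 (minus strand) in Ybx1, chr11:69941532-69941561 (plus) in Ybx2, chr9:44639139-44639168 (plus) in Ddx6, chr7:34344848-34344877 (minus) in Lsm14a and chr2:180034634-180034663 (plus) in Lsm14b. All 5 windows are exonic and lie in a 3′UTR of the GENCODE vM21 annotation.

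The elements were spread unevenly. Ddx6, with a 3′UTR of 4250 bases against a median of 1119 bases over those 15125 genes, held 3 CPEs and 7 of the 11 AUUUA pentamers found in the 10 genes. Lsm14a and Lsm14b, with 1346 and 1181 bases, held 2 CPEs and 1 CPE, respectively. Ybx2 had its CPE 56 bases before the annotated end, closer than in the other 5 genes, where 214 to 1575 bases followed it. In those 5 genes 190 to 1552 bases lay between the last CPE and the last polyadenylation hexamer (AAUAAA or AUUAAA). The annotated 3′UTR of Ybx2 held no such hexamer, so the end used there is uncertain. Neither the CPE nor AUUUA was found in Zar1 (146 bases), Zar1l (14 annotated bases) or Eif4e1b (1063 bases), and Patl2 (366 bases) held 1 AUUUA. A match is a description of the letters and not a measured binding site, and the AUUUA pentamer stood in 5 of the 10 genes, beside 69.8% of those 15125 genes.

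All 10 transcripts differed between the groups at an adjusted p of at most 0.05 (edgeR's quasi-likelihood test, Benjamini-Hochberg adjusted over all 19241 genes), as did 55.2% of all genes tested. The transcripts of 8 genes were lower in CNOT7&8 KO oocytes and those of 2, Ddx6 and Patl2, were higher. Among all genes tested, 31.2% were higher and 24.1% lower, whereas among the 2412 genes averaging 100 CPM or more, 63.6% passed the test, 8.33% higher and 55.3% lower. Of the 10 genes 8 reached this abundance, Ddx6 only through its KO libraries, so the share of abundant genes that were higher is no background for it. Of the abundant genes 20.02% were called higher and 31.5% lower when libraries were scaled by their total alone, and 19.7% and 35.3% with TMM factors taken from genes above 10 CPM, with median log2 fold changes of -0.09 and -0.12. Over all genes these scalings gave 7742 higher and 2620 lower, and 7589 higher and 2863 lower, against 5997 and 4631 with TMM on all genes tested. The study's rule for differentially expressed genes (DEGs) also asks for a fold change of at least 2, and 1 gene passed it upward (Ddx6) and 4 downward (Zar1l, Ybx2, Lsm14b and Eif4enif1), beside 23.8% and 6.56% of all genes (30.4% in either direction) and 1.58% and 6.05% of the abundant ones (7.63% in either direction). Under the same 2 scalings Ddx6 and Eif4enif1 were the only DEGs of the 10, since Zar1l and Ybx2 (both at -0.84 by library totals and -0.88 by the restricted TMM) and Lsm14b (-0.73 and -0.76) fell short of the 2-fold limit while keeping their adjusted p under the threshold. The median log2 fold change of the 10 genes was -0.69, beside 0.12 over all genes tested and -0.37 over the abundant genes. For each of the 10 genes the 4 KO values lay wholly on 1 side of the 4 control values, for which the exact permutation test over the libraries gives p = 0.0286 (two-sided), the smallest it can give. Such separation was seen upward in 27% and downward in 21.4% of all genes, and upward in 6.38% and downward in 51% of the abundant ones.

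**Figure D1:**
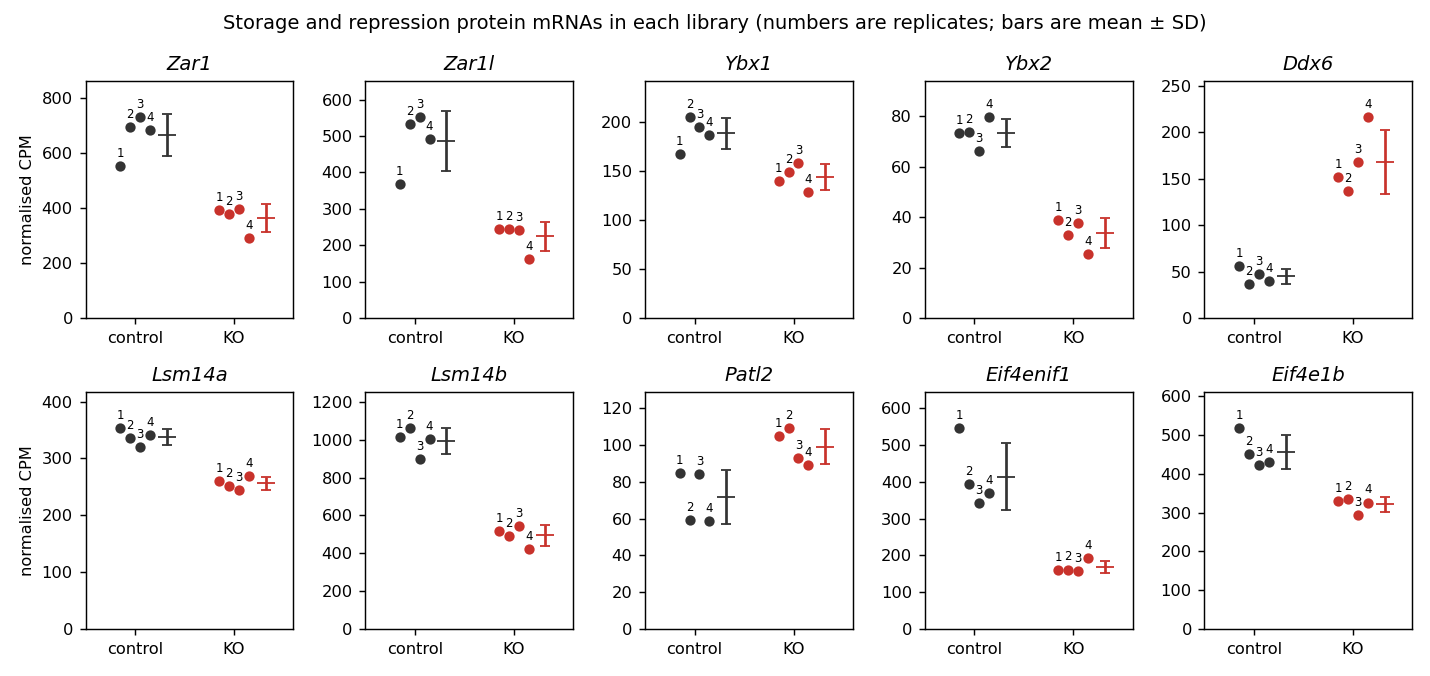
TMM-scaled CPM of the 10 genes in each library, with a panel per gene, points for the 4 Zp3-Cre control and the 4 CNOT7&8 KO libraries and bars for the mean and SD. The control and KO points do not overlap in any panel, and the KO points lie above the control points for Ddx6 and Patl2 and below them for the other 8 genes.

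Zar1 and Zar1l encode zinc-finger proteins that bind maternal mRNA and repress its translation in oocytes. Zar1 (ENSMUSG00000063935, chr5:72576806-72581254, minus strand) was at 553, 693, 729.6 and 681.5 CPM in control replicates 1 to 4 and at 393, 377, 397 and 289.7 CPM in KO replicates 1 to 4. The highest KO library was thus below the lowest control library, control replicate 1. The mean fell from 664 ± 76.9 to 364 ± 50.2 CPM (SD, n = 4 each), to 54.8% of control, with a log2 fold change of -0.87 (SE 0.13, edgeR adjusted p = 0.000134). Zar1 was at -0.59 when libraries were scaled by their total alone (edgeR adjusted p = 0.00354). With TMM factors from genes above 10 CPM it was at -0.63 (edgeR adjusted p = 0.00374). Zar1l (ENSMUSG00000056586, chr5:150507055-150518164, minus strand), its paralog, was at 368, 533, 552 and 493 CPM in the control and at 246, 246, 243 and 163 CPM in the KO libraries. Among the controls replicate 1 was the lowest, and KO replicate 4 lay well below the other 3 KO libraries, which were nearly equal. The Zar1l mean fell to 46.1% of control (log2 fold change -1.12, SE 0.16, edgeR adjusted p = 0.000109).

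The Y-box proteins package mRNA, YBX2 (MSY2) being the germ-cell form and YBX1 the widely expressed one. Ybx2 (ENSMUSG00000018554, chr11:69935796-69941605, plus strand) was at 73.4, 73.7, 66.1 and 79.5 CPM in control replicates 1 to 4 and at 38.8, 32.9, 37.6 and 25.4 CPM in KO replicates 1 to 4. Every KO library was far below the lowest control, and the mean fell to 46.0% of the control level (log2 fold change -1.12, SE 0.14, edgeR adjusted p = 4.5e-05). Ybx1 (ENSMUSG00000028639, chr4:119277981-119294604, minus strand) was at 167, 204, 195 and 187 CPM in the control and at 139, 149, 158 and 128 CPM in the KO libraries. The groups were separated by a small gap, between control replicate 1 and KO replicate 3. The Ybx1 mean fell to 76.4% of control (log2 fold change -0.39, SE 0.11, edgeR adjusted p = 0.00921), and this call was lost when libraries were scaled by their total alone (log2 fold change -0.11, adjusted p = 0.454) or by TMM factors taken from genes above 10 CPM alone (-0.15, adjusted p = 0.321). Reads of Ybx1 may be shared with its processed pseudogene Ybx1-ps2, since how such reads were counted is not given in the sources used here.

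The largest change among the 10 genes was that of Ddx6, an RNA helicase of the DEAD-box family that joins translational repression to decapping and binds 4E-T, LSM14 and PATL proteins. Ddx6 (ENSMUSG00000032097, chr9:44604892-44640731, plus strand) was at 55.7, 36.7, 47.2 and 40.4 CPM in control replicates 1 to 4 and at 152, 137, 168 and 216 CPM in KO replicates 1 to 4. The lowest KO library was well above the highest control library, and the libraries at the top of each group were control replicate 1 and KO replicate 4. The mean rose 3.74-fold, from 45.0 ± 8.35 to 168 ± 34.4 CPM (SD, n = 4 each), with a log2 fold change of 1.90 (SE 0.17, edgeR adjusted p = 3.06e-06). Over all genes tested this fold change stood at percentile 83.6.

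LSM14A and LSM14B bind DDX6 and 4E-T in repressed particles, and LSM14B is the form enriched in oocytes. Lsm14b (ENSMUSG00000039108, chr2:180024987-180035465, plus strand) was at 1013, 1063, 901 and 1006 CPM in the control and at 517, 494, 547 and 420.3 CPM in the KO libraries. The KO libraries were all far below the controls, and the mean fell to 49.7% of control (log2 fold change -1.01, SE 0.11, edgeR adjusted p = 1.33e-05). With the fold change so near 2, its place among the DEGs depended on the setting, and it was not a DEG by DESeq2, under any of the 4 other scalings or either of the other filters on low counts, or without control replicate 2, KO replicate 2 or KO replicate 4. Lsm14a (ENSMUSG00000066568, chr7:34344646-34393315, minus strand) was at 354, 336, 319 and 341 CPM in the control and at 260.5, 251, 244 and 269.8 CPM in the KO libraries. Its groups were tight and did not overlap, and the mean fell to 75.9% of control (log2 fold change -0.40, SE 0.09, edgeR adjusted p = 0.00301). Scaling by library totals alone gave Lsm14a a log2 fold change of -0.11 (adjusted p = 0.222) and TMM factors from genes above 10 CPM one of -0.15 (adjusted p = 0.114), and both ended the call. Lsm14a shares 344 exonic bases with the antisense gene Gm12764, whose mean was 0.821 CPM in control and 1.57 CPM in KO oocytes.

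Patl2 encodes the oocyte form of the PAT1 proteins, which bind DDX6 and repress translation in oocytes. Patl2 (ENSMUSG00000027233, chr2:122120108-122186189, minus strand) was at 84.6, 59.5, 84.5 and 58.8 CPM in control replicates 1 to 4 and at 105, 109, 92.8 and 89.3 CPM in KO replicates 1 to 4. The control libraries fell into a higher and a lower pair, and the lowest KO library was just above the higher pair. The mean rose to 138% of control (log2 fold change 0.46, SE 0.15, edgeR adjusted p = 0.0186). Without control replicate 2 or without control replicate 4, the libraries of the lower pair, the log2 fold change was 0.38 with adjusted p = 0.0617 and 0.0607.

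4E-T shuttles the cap-binding protein eIF4E and, in oocytes, binds the repressive cap-binding protein eIF4E1B. Eif4enif1 (ENSMUSG00000020454, chr11:3202392-3244588, plus strand), the gene of 4E-T, was at 546, 395, 342.5 and 370.3 CPM in the control and at 159, 161, 157 and 192 CPM in the KO libraries. Control replicate 1 and KO replicate 4 were the highest of their groups, and the groups lay far apart. Its mean fell to 40.5% of control, the lowest share among the 10 genes (log2 fold change -1.30, SE 0.15, edgeR adjusted p = 1.84e-05). Eif4e1b (ENSMUSG00000074895, chr13:54783998-54788459, plus strand) was at 519, 452, 422 and 432 CPM in the control and at 329, 335, 293 and 326 CPM in the KO libraries. All KO values were below all control values, and the mean fell to 70.4% of control (log2 fold change -0.51, SE 0.10, edgeR adjusted p = 0.00128). The size of this decrease depended on the scaling. Eif4e1b was at -0.22 by library totals alone (edgeR adjusted p = 0.0348). With TMM factors from genes above 10 CPM it was at -0.25 (edgeR adjusted p = 0.0123).

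**Figure D2:**
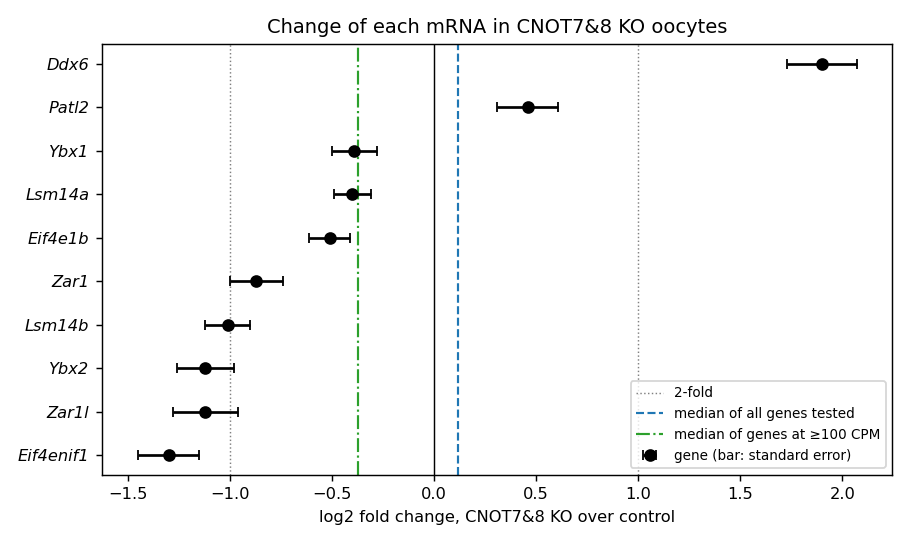
Log2 fold changes of the 10 genes, KO over control, from edgeR's quasi-likelihood fit with bars for the SE, ordered by size, with vertical lines at a 2-fold change and at the medians of all genes (0.12) and of the abundant genes (-0.37). Ddx6 stands at 1.90 and Patl2 at 0.46, and the other 8 genes lie between -1.30 and -0.39.

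The deepest library of each group, control replicate 1 and KO replicate 4, often stood at the edge of its group. Both were below the other 3 libraries of their group for Zar1, Zar1l and Ybx1, and both were above them for Ddx6, Lsm14a and Eif4enif1. With both left out, an alternative chosen after seeing the data, the 10 genes gave the same counts of 2 higher and 8 lower, but Lsm14b was no longer a DEG. Without KO replicate 4 alone, Ddx6 and Eif4enif1 were the only DEGs among the 10 genes.

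Because the ratio of 2 genes within a library does not depend on how libraries are scaled, paralogs were compared by the ratio of their counts per kilobase of the longest annotated transcript. The ratio of Ybx2 to Ybx1 was 0.427, 0.351, 0.330 and 0.415 in the control and 0.271, 0.215, 0.231 and 0.193 in the KO libraries. All KO ratios were below all control ratios, and the log2 ratio fell by 0.75 (two-sided exact permutation test, p = 0.0286, adjusted p = 0.0476 over the 5 pairs compared). The ratio of Lsm14b to Lsm14a was 3.29, 3.64, 3.24 and 3.39 in the control and 2.28, 2.26, 2.57 and 1.79 in the KO libraries, again without overlap, and its log2 value fell by 0.62 (exact permutation p = 0.0286, adjusted p = 0.0476). Zar1l to Zar1 shifted less, from 1.86, 2.15, 2.11 and 2.02 to 1.75, 1.82, 1.71 and 1.57, a fall by 0.25 on the log2 scale with the same exact permutation p-values. In these 3 pairs the paralog with the larger relative (fold) decrease was the germ-cell form of the Y-box proteins, the oocyte form of LSM14 and Zar1l.

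For the other 2 pairs the groups overlapped. Patl2 exceeded Patl1, its widely expressed relative, 6.92-, 6.11-, 11.1- and 7.06-fold in the control and 14.3-, 13.6-, 13.7- and 10.2-fold in the KO libraries, and control replicate 3 lay above KO replicate 4. The log2 ratio differed by 0.76 (exact permutation p = 0.0571, also after adjustment). Eif4e1b exceeded Eif4e, the general cap-binding protein, by a geometric mean of 3.46-fold in control and 2.92-fold in KO libraries, a log2 difference of -0.24 (exact permutation p = 0.0571, also after adjustment). These p-values do not show that the pairs were unaltered.

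**Figure D3:**
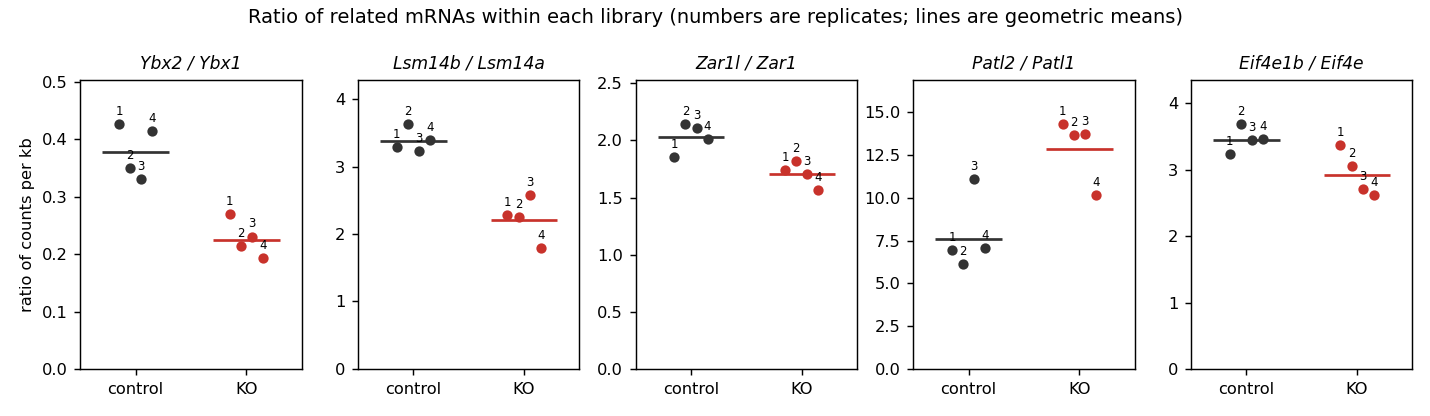
Ratio of counts per kilobase between related genes in each library (linear axis from 0), for 5 pairs, with numbered points for the 4 control and 4 KO replicates and lines at the geometric means. The groups do not overlap for Ybx2 over Ybx1, Lsm14b over Lsm14a and Zar1l over Zar1, and they overlap for Patl2 over Patl1 and Eif4e1b over Eif4e.

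Levels were then set side by side between genes as CPM per kilobase of the longest annotated transcript. In control oocytes Zar1l stood first at 544 ± 92.2 CPM per kilobase (SD, n = 4), followed by Lsm14b at 388 ± 26.6 and Zar1 at 266 ± 30.8. Eif4e1b was at 214 ± 20.4, and Ybx1, Lsm14a and Eif4enif1 were close together at 116 ± 9.72, 115 ± 4.83 and 111 ± 24.5. Ybx2 followed at 43.7 ± 3.28, Patl2 at 29.5 ± 6.03 and Ddx6 last at 7.42 ± 1.38 CPM per kilobase. Neighbours whose control libraries overlapped, and whose order is therefore not settled, were Zar1l and Lsm14b, Zar1 and Eif4e1b, Ybx1 and Lsm14a, and Lsm14a and Eif4enif1. The Zar1l value rests on an annotated transcript of 895 bases whose 3′UTR may be incomplete, and a missing 3′UTR would make it too high. With the union of all exons as the length, Ybx1, Eif4enif1 and Lsm14a were at 74.4, 64.9 and 54.98 CPM per kilobase, over 1.5 times below the values above, and Eif4e1b stood above Zar1 and Eif4enif1 above Lsm14a, while Zar1l stayed first and Ddx6 last.

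In KO oocytes part of the order changed. Zar1l and Lsm14b were still first, at 251 ± 45.7 and 193 ± 21.1 CPM per kilobase (SD, n = 4), and overlapped. Ddx6 reached 27.8 ± 5.66 and Ybx2 went down to 20.1 ± 3.61, so that these genes, which had not overlapped in control oocytes, where Ybx2 was the higher, overlapped in KO oocytes. Ybx2 also changed places with Patl2 without overlap in either group, with Ybx2 at 39.5 to 47.5 and Patl2 at 24.1 to 34.8 CPM per kilobase in control and Patl2 at 36.7 to 44.9 and Ybx2 at 15.2 to 23.2 in KO libraries. Eif4e1b stood above Zar1 in KO oocytes, but these neighbours overlapped in both groups. Among all genes tested, the level of Ddx6 per kilobase moved from percentile 66.3 to 86.9 and that of Ybx2 from 89.8 to 82.3.

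**Figure D4:**
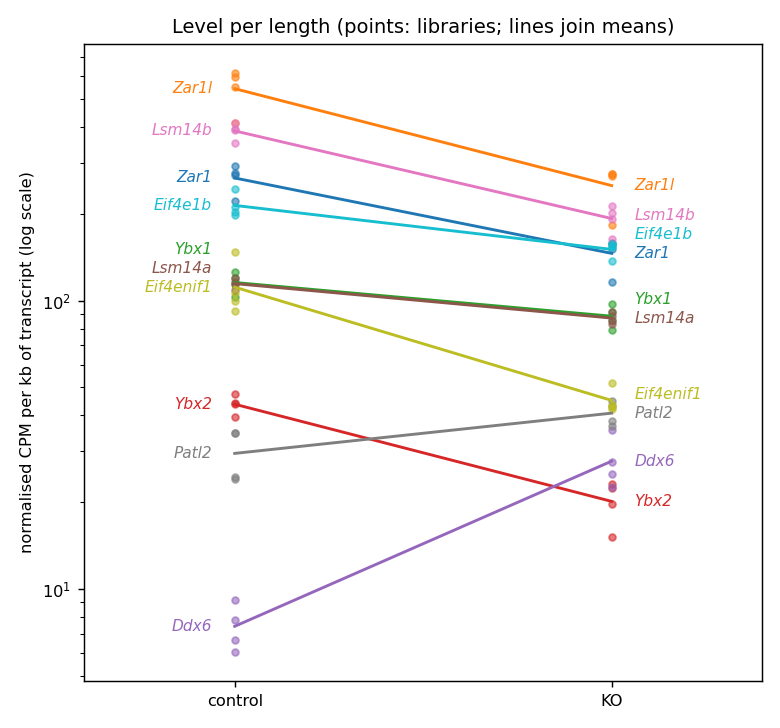
Level of each of the 10 genes in control and in KO oocytes as CPM per kilobase of the longest transcript on a log axis, with points for libraries and lines joining the means of the groups. Zar1l and Lsm14b are the highest in both groups, and Ddx6 is the lowest in control but lies beside Ybx2 in KO oocytes.

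The summed level of the 10 transcripts was 1729 to 1921 CPM per kilobase in control and 925 to 1096 in KO libraries, with means of 1834 ± 80.0 and 1049 ± 82.8 (SD, n = 4 each). Within this sum the share of Ddx6 was 0.407% ± 0.0927 in control and 2.69% ± 0.798 in KO oocytes, and that of Patl2 1.62% ± 0.375 and 3.89% ± 0.278. Zar1l held 29.5% ± 4.02 of the sum in control and 23.7% ± 2.70 in KO oocytes. Its shares overlapped, at 23.8 to 33.1% in control and 19.7 to 25.4% in KO libraries. The sum and all shares rest in part on the Zar1l transcript of 895 bases, whose 3′UTR may be incomplete. Set against its binding partners within each library, Ddx6 was at 0.0624, 0.0568, 0.0844 and 0.0668 of the level of Eif4enif1 in the control and at 0.586, 0.520, 0.655 and 0.689 in the KO libraries. Against Lsm14b the geometric mean of the ratio was 0.0189 in control and 0.143 in KO oocytes, and against Patl2, which also rose, it was 0.252 and 0.674. These sums, shares and ratios were chosen after the values were seen and are given without a test.

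A wider list of 42 RNP genes that are relatives or partners of these proteins was then examined, of which 41 were tested. Of these, 11 were higher, 16 lower and 14 did not pass the test, with a median log2 fold change of -0.27, beside 31.2% higher and 24.1% lower and a median of 0.12 over all genes tested. By the DEG rule 6 were higher and 5 lower, beside 23.8% and 6.56% of all genes. The counts of the groups below are to be read against the same shares, and nothing is claimed to be particular to a group. Scaling by library totals alone gave 15 higher and 9 lower and turned the sign of 7 of the 41, so directions of small changes in this list depend on the scaling. By library totals and by TMM from genes above 10 CPM, 4 lower DEGs fell short of 2-fold. These were Ybx3 (-0.74 and -0.78), Eif4e3 (-0.75 and -0.78), Edc4 (-0.79 and -0.83) and Cyfip1 (-0.91 and -0.94). Dcp1b stayed a DEG (-1.41 and -1.45), and Lsm1 (1.24 and 1.21) and Eif4ebp2 (1.16 and 1.13) became higher DEGs.

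Among the 5 close relatives, none was higher and 2 were lower. Ybx3, a further Y-box gene, fell from 318 ± 59.1 to 157 ± 27.3 CPM (log2 fold change -1.02, SE 0.16, edgeR adjusted p = 0.00022), a decrease near that of Ybx2. Eif4e3, a divergent cap-binding protein, fell from 176 ± 24.9 to 85.7 ± 7.42 CPM (-1.04, SE 0.12, edgeR adjusted p = 2.52e-05). Eif4e, Eif4e2 and Patl1 did not pass the test, at 310.1, 44.6 and 16.4 CPM in control against 258, 38.8 and 13.4 CPM in KO oocytes (edgeR adjusted p = 0.0782, 0.135 and 0.164). In the cap-binding family the oocyte form Eif4e1b thus passed the test downward with Eif4e3, and the general form Eif4e did not pass it, although it did so without control replicate 1 and KO replicate 4 (-0.22, edgeR adjusted p = 0.0253). The difference between Eif4e1b and Eif4e did not pass its own test, given above as a ratio.

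Of 9 genes for P-body partners of DDX6 and LSM14, 2 were higher and 5 lower. Edc4, a scaffold of decapping, fell from 405 ± 77.01 to 193.5 ± 36.2 CPM (log2 fold change -1.07), and the decapping cofactor Dcp1a, with the highest control level per kilobase of this group, fell from 1276 ± 83.3 to 1026 ± 40.0 CPM (-0.31, edgeR adjusted p = 0.0132), a call lost under 3 of the scalings tried. Dcp1b fell (log2 fold change -1.68) and Edc3, which binds DDX6, rose (1.70), but these had means of at most 2.12 CPM in either group.

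Of 5 tested genes for repressors that bind eIF4E or its partners, 3 were higher and 1 lower. Eif4ebp1 and Gigyf1 rose (log2 fold changes 1.56 and 1.5) but stayed below 5 CPM in every library, and Cyfip1, a partner of FMRP that binds eIF4E, fell from 82.0 ± 2.71 to 36.0 ± 6.74 CPM (-1.19). Gigyf2, the most highly expressed of this group per kilobase, had means of 178 ± 20.7 CPM in control and 208 ± 23.1 CPM in KO oocytes (edgeR adjusted p = 0.128), but it was called higher under 3 of the other scalings (log2 fold changes of 0.32 to 0.51) and with control replicate 1 and KO replicate 4 left out.

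Of 16 genes for RNA-binding proteins of stored or stress granule RNPs, 4 were higher and 7 lower. Syncrip rose from 10.3 ± 4.52 to 54.0 ± 9.22 CPM (log2 fold change 2.37), Fmr1 from 23.3 ± 8.04 to 54.9 ± 12.9 CPM (1.23) and Igf2bp1 from 0.499 ± 0.107 to 5.34 ± 1.33 CPM (3.36). Fxr1, an autosomal relative of Fmr1 and the gene with the highest control level per kilobase in this group, fell from 752 ± 109 to 491.5 ± 38.3 CPM (-0.61, edgeR adjusted p = 0.000926). Among 6 genes for sequence-specific repressors 2 were higher and 1 lower, and Dazl, the highest of them per kilobase, did not pass the test, with 849.9 ± 47.9 CPM in control and 954 ± 61.5 CPM in KO oocytes (edgeR adjusted p = 0.157), but it too was called higher under 3 of the other scalings (0.27 to 0.45).

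**Figure D5:**
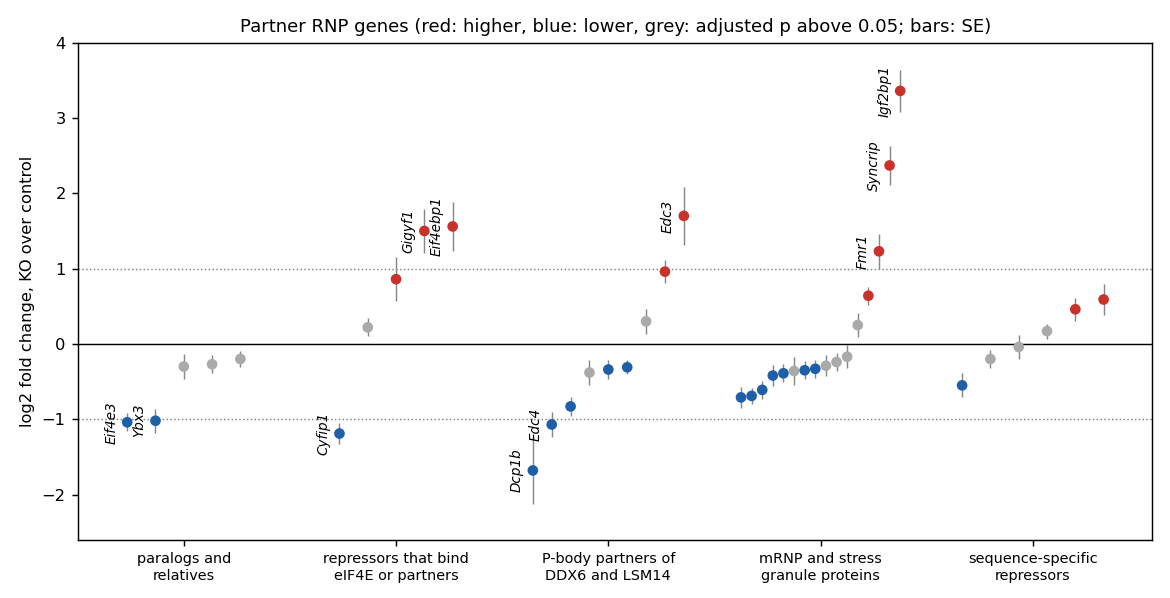
Log2 fold changes, KO over control, of the 41 tested relatives and partners, in 5 groups, with bars for the SE, red for higher, blue for lower and grey for an adjusted p above 0.05, and names for the 11 DEGs. Igf2bp1 (3.36) and Syncrip (2.37) lie highest, Dcp1b (-1.68) lies lowest, and no close relative of the 10 genes lies above 0.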

How the data were processed

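The labels name a total RNA kit with ribosomal RNA removal and the study's methods a stranded mRNA kit with ribosomal RNA depletion, so any poly(A) selection, which would bear on levels in a deadenylase knockout, is uncertain. The authors amplified with 11 PCR cycles, mapped read pairs to GRCm38 with STAR 2.6.1d (the submitters' processing notes also name edgeR 3.11), and deposited raw counts per gene. The counting tool, annotation release and strand setting are not given in the sources used here, so genes that overlap, run antisense or have near copies have uncertain values. Groups and replicate numbers came from the sample labels.

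Genes with at least 0.2 CPM in 2 libraries, the study's filter, were tested with edgeR 4.0.16 in R 4.3.3 (TMM, quasi-likelihood test, Benjamini-Hochberg over all genes). Ratios were tested by exact permutation over the 70 assignments of the 8 libraries. DESeq2 1.42.0, edgeR's exact test, other scalings and filters, a replicate block and leaving out each library were alternatives. Libraries within a group all differed by more than counting noise. The pipeline was tested on simulated data in which 200 of 18362 genes changed by a log2 fold change of 2, as many up as down. That setting does not test the scaling of data in which 55.2% of genes differ. Total counts ranged from 8639444 to 44092144.

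Of the gene identifiers, 98.2% were found in GENCODE vM21, which gave positions, lengths and 3′UTRs, and 99.4% of genes tested had a length. Levels used the longest transcript, and elements the longest 3′UTR. The gene lists, the groups of partners and the tests were chosen with earlier results of these data known. Named were all 10 genes, the 5 close relatives, each partner that was a DEG and, in each other group of partners, the gene with the highest control level per kilobase.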

Additional observations from a re-analysis of the deposited data

Results flagged for a closer look

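In 3 of the 30 groups of 4 libraries examined with Dixon's test, 1 library lay farther from the others than its 95% critical value allows. Chance would give about 1.5 such groups. All 3 concerned KO replicate 4, the deepest KO library. Its Zar1l level was 163 CPM, against 243 to 246 CPM in the other 3 KO libraries. Its Eif4enif1 level was 192 CPM, against 157 to 161 CPM. Its log2 ratio of Patl2 to Patl1 was 3.35, against 3.77 to 3.84. Without this library the log2 fold changes of Zar1l and Eif4enif1 kept their direction and their call.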

How the results depend on the processing

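In 180 combinations of the 10 genes with 18 alternatives each, direction was kept in 180 and the side of the threshold in 174. The 6 others were Ybx1 and Lsm14a under scaling by library size only (-0.11 for both) and under TMM from genes above 10 CPM (-0.15 for both), and Patl2 without control replicate 2 or 4. These scalings moved the median log2 fold change of all genes up by 0.29 and 0.25. Leaving out 1 library gave Patl2 log2 fold changes of 0.38 to 0.55 and 1 to 2 higher genes of the 10. The 2-fold rule left 1 higher and 4 lower of the 10 genes, 6 higher and 5 lower of the partners, and 1263 lower of all genes. Over all genes, library size only gave 2620 and TMM from genes above 10 CPM 2863 lower genes. Partners lower numbered 9, 9 and 10 under library size only, TMM from genes above 10 CPM and upper quartile scaling. The cause was not tested beyond this shift.

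Replicate numbers are shared between groups, but same-numbered libraries did not deviate together (r of -0.07, -0.04, 0.11 and -0.12), and the best match of control replicate 1 was KO replicate 4 (r = 0.37). A replicate block gave 2 higher and 8 lower of the 10 genes and 11 higher and 14 lower partners. With the block the log2 ratios differed by -0.75 (Ybx2 over Ybx1), -0.62 (Lsm14b over Lsm14a) and -0.25 (Zar1l over Zar1), with exact permutation adjusted p = 0.1562, and the smallest p it allows is 0.125. Leaving out 1 library gave -0.84 to -0.67, -0.69 to -0.52 and -0.29 to -0.21, with exact permutation adjusted p from 0.0714 to 0.0952, since these designs cannot pass the threshold over 5 pairs. Leaving out control replicate 1 and KO replicate 4, chosen after seeing the data, gave -0.61, -0.53 and -0.25 (exact permutation adjusted p = 0.1, the smallest possible), and a Patl2 log2 fold change of 0.60.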
